A study of Mus musculus with 5 samples.

Results

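CXCR6+ and CXCR6- CD4+ T cells of the inflamed colon were compared over every gene with a clear signal in at least one of the subsets. The labels call the subsets CXCR6 Hi and CXCR6 Lo, with 2 arrays each, and 1 array of naive T cells served as a reference. One probe set stood for each of 18193 genes, namely the brightest among those with a single gene symbol. Of these genes, 6807 had a signal of at least 4 on both arrays of a subset, on a scale where the median of each array is 1, and these are the members. In all, 6220 genes passed in both subsets, 373 only in CXCR6+ cells and 214 only in CXCR6- cells, while 11386 did not pass. A gene that passed only in the subset where it was high tended to differ through the filter itself, so the number that passed in both subsets is given beside the counts over all members.

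Both subsets were sorted as CD3+CD4+ cells from the colonic lamina propria (LP) of Rag1-/- mice that had received CD45RBhigh CD4+ T cells from spleen, a transfer that causes colitis. All mice had a BALB/c background and were 8 to 12 weeks old at their use in experiments. The methods give no age of recipients when the cells were taken. The time after transfer is given as 8 weeks for recipients in the methods and as 6 weeks for these cells in a supplementary note. The subsets shared host, donor cells and tissue and differed in how much of a CXCL16 fusion protein, the ligand of CXCR6, they bound. Rag1-/- hosts make no T or B cells of their own but keep myeloid and innate lymphoid cells. The naive cells were CD3+CD4+CD45RBhigh cells of healthy mice, labelled both as spleen and as LP, and the methods name the spleen. The transferred cells were also sorted as negative for CD25, the protein of Il2ra. For the array samples the methods state no CD25 gate. How many mice gave each sample is not stated, and since nothing beyond the words biological replicate says that the cells came from separate animals, the p-values cover the variation among 2 arrays a subset, which may be technical.

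CXCR6 is the receptor of CXCL16, a chemokine that is also anchored in the membrane of epithelial and antigen presenting cells. It is known as a receptor of activated T cells and of T cells that stay in tissue. Transfer colitis is driven by T cells that make IFN-γ and IL-17 once they reach the gut. CXCR5, which guides T cells towards B cell follicles, and the transcription factor Eomes belong to other effector and memory programs.

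CXCR6+ cells had higher signals of the killer cell lectin-like receptors Klrc1 and Klrd1, of the cytokine genes Ifng, Csf2 and Ltb, of the IL-2 receptor chain Il2ra, of the collagen-binding integrin Itga1 and of the lipid receptors Gpr34 and Ltb4r1. CXCR6- cells had higher signals of Eomes, Gzmk, Cd27, Cxcr5 and Slamf6. These genes were picked among those with large differences, and no gene passed adjustment over all genes, as given below. Il2ra, Itga1, Gpr34 and Ltb4r1 passed the signal filter only in CXCR6+ cells, and Eomes, Cd27 and Cxcr5 only in CXCR6- cells. For these the filter itself favored a difference. Of the 6807 members, 6655 (97.8%) lay within a log2 difference of 1 in either direction, 123 lay above it and 29 below. The log2 difference is the mean log2 signal of the CXCR6+ arrays minus that of the CXCR6- arrays. Its median size was 0.22, beside a median difference of 0.24 between the CXCR6+ arrays and of 0.18 between the CXCR6- arrays. These measures are unlike, since the first compares means of 2 arrays and the others single arrays, which vary more. The first also holds the median offset of 0.17 between the subsets.

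Of the members, 121 were at least 2-fold higher in CXCR6+ cells with arrays that did not overlap, and 25 were lower by the same measure. These are 1.78% and 0.367% of the members, against 4.01% and 5.21% of all genes. Among the genes that passed in both subsets, the counts were 81 (1.3%) and 11 (0.177%). After quantile normalization 67 members were higher (0.984%) and 46 were lower (0.676%), and after each array was centred on the members 71 (1.04%) and 52 (0.764%). At an unadjusted p under 0.05 with limma, 253 members were higher (3.72%) and 49 were lower (0.72%), against 3.37% and 3.18% of all genes. Of these members, 197 and 22 had passed in both subsets. No gene passed Benjamini-Hochberg adjustment over the 18193 genes in limma (0.0%, smallest adjusted p of a member = 0.451). An exact permutation test of 2 arrays against 2 cannot go below p = 0.333, so differences below are described by their values and standard errors (SE, limma), and not as calls.

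**Figure D1:**
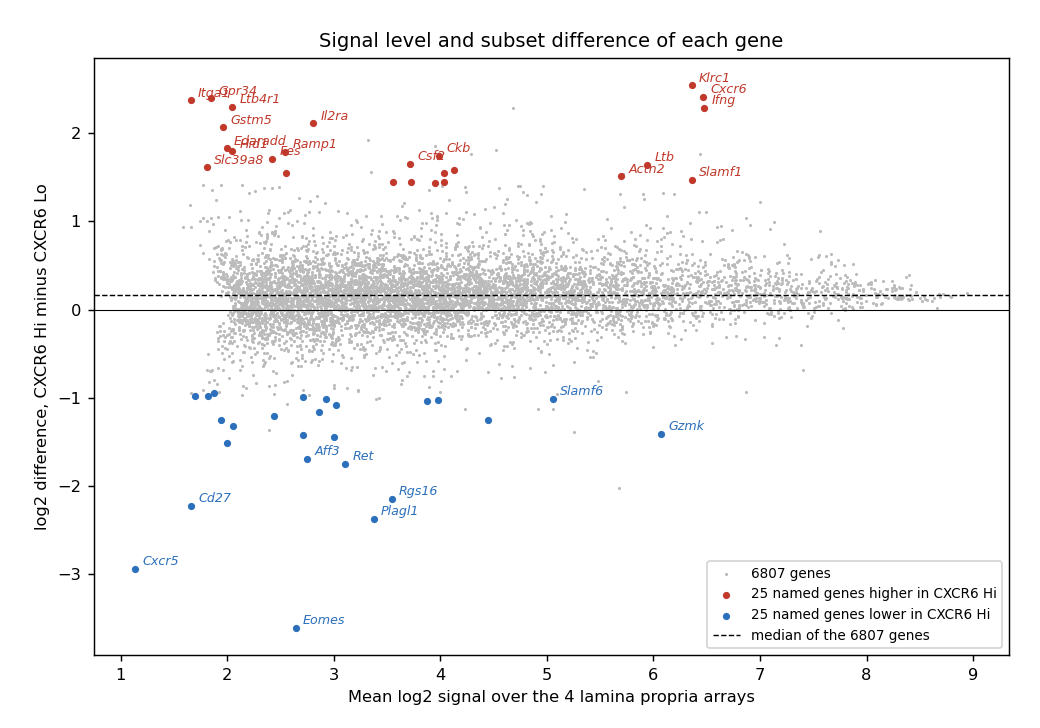
Each point is a gene, with its mean log2 signal over the 4 LP arrays on the horizontal axis and the log2 difference between CXCR6 Hi and CXCR6 Lo on the vertical axis, and coloured points are the 25 named genes in each direction. The cloud is centred on the dashed line at 0.17, and Klrc1, Cxcr6 and Ifng stand out among bright genes, with Eomes and Cxcr5 at the other end.

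When the fit was restricted to the 6807 members, limma estimated 18.84 prior degrees of freedom in place of 1.678, and 338 genes passed adjustment (4.97%). Of these, 281 were higher and 57 lower, and 237 had passed the signal filter in both subsets. The count was 17 (0.25%) once each array was centred on the members and 8 (0.118%) after quantile normalization, and 3 and 2 of these had passed the signal filter in both subsets. The 8 genes were also among the 338 and the 17. They were Ifng, Itga1, Il2ra, Gpr34, the metal importer Slc39a8 and 5830411N06Rik, which were higher, and Cxcr5 and the nuclear factor Aff3, which were lower. The symbol 5830411N06Rik is that of a clone, and this gene is described below with genes known from γδ T cells. Apart from Ifng and 5830411N06Rik, each of the 8 was a member through the subset where it was high alone, so the filter itself favored a difference. Without CXCR6+ replicate 2 as deposited, Cxcr5, Gpr34, Itga1 and Plagl1 passed, and 0 of these 4 were above the filter in both subsets. Without CXCR6+ replicate 1 the count was 11 (5 in both), without CXCR6- replicate 1 it was 229 (152 in both) and without CXCR6- replicate 2 it was 102 (59 in both). A fit without a CXCR6 replicate takes the spread of that subset from the other one.

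On the scale of array medians the members were higher on average in CXCR6+ cells, with a median log2 difference of 0.17 and an interquartile range of -0.01 to 0.35. On the deposited scale 2823 members were higher without overlap (41.5%) and 538 were lower (7.9%), and 2570 and 435 of these had passed in both subsets. Over all genes these shares were 25.1% and 14.3%. After quantile normalization 1601 members were higher (23.5%) and 1621 were lower (23.8%), against 19.6% and 19.2% of all genes. Quantile normalization gives every array the same distribution, so a near even split largely follows from it. Whether the uneven split as deposited came from the scaling or from the cells was not tested. The median of a gene group is therefore to be read against 0.17 as deposited and against -0.01, the median of all members after quantile normalization. Likewise, the counts of a group without overlap are to be read against 41.5% higher and 7.9% lower as deposited and against 23.5% and 23.8% after quantile normalization. The threshold itself had close neighbours. Adh1 (2.17 and 7.89 in CXCR6+ cells, 4.0 and 9.52 in CXCR6- cells) and Gna11 (4.41 and 3.997, 4.007 and 4.26) were just inside, while Ada (3.996 and 6.02, 3.31 and 4.42) and Swap70 (3.35 and 8.55, 3.997 and 4.51) were just outside.

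Cxcr6, the gene of the sorted receptor, read 184 and 225 in CXCR6+ cells against 58.1 and 25.3 in CXCR6- cells. The arrays did not overlap, and the log2 difference of 2.41 (SE 0.50) is set by the sort. CXCR6- replicate 1 lay nearer to the CXCR6+ arrays than CXCR6- replicate 2 did, and the same order held for 20 of the 25 named higher genes, against 52.1% of the members. The naive array gave 10.5. Itga1, the collagen-binding α1 integrin chain, had signals of 7.65 and 6.73 in CXCR6+ cells and of 1.29 and 1.49 in CXCR6- cells, a log2 difference of 2.37 (SE 0.23). Ifng, the Th1 cytokine, had signals of 156 and 248 in CXCR6+ cells and of 42.4 and 38.2 in CXCR6- cells, with a log2 difference of 2.29 (SE 0.33). Cxcr5 showed the reverse, with 0.75 and 0.84 in CXCR6+ cells against 5.05 and 7.34 in CXCR6- cells, a log2 difference of -2.94 (SE 0.30). In such bulk samples a larger share of cells with a transcript and more of it per cell cannot be told apart.

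Both subsets carried the transcripts of CD4+ T cells. Cd4 had signals of 39.2 and 39.1 in CXCR6+ cells and of 27.0 and 22.9 in CXCR6- cells, and Cd3e had 24.4 and 23.2 against 23.9 and 25.1. The CD4 T cell identity group had 13 members with a median of 0.51, or 0.27 after quantile normalization. Cd3g, Cd3d, Trat1 and Thy1 were higher without overlap, at log2 differences of 0.51 to 0.62, whereas Zap70, the kinase that reads the T cell receptor, was lower at -0.29. Cd8a reached at most 4.67 and Cd8b1 at most 0.41 on these arrays.

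The promoters of 4 genes are shown, because Klrc1, Ifng and Ltb were among the brightest genes that were higher and Eomes had the largest difference the other way. The sequences are those of RefSeq (GRCm38.p6), from 250 bases before to 50 bases after the start of the gene, written 5′ to 3′ along the gene. Capitals mark matches on either strand to the TATA box letters TATAAA, the NF-kB letters (GGGA, any base, TTTCC) or the STAT letters TTCNNNGAA. Klrc1 lies at chr6:129678924-129679223 on the minus strand, Ifng at chr10:118440796-118441095 on the plus strand, Ltb at chr17:35194257-35194556 on the plus strand and Eomes at chr9:118477939-118478238 on the plus strand.
Klrc1: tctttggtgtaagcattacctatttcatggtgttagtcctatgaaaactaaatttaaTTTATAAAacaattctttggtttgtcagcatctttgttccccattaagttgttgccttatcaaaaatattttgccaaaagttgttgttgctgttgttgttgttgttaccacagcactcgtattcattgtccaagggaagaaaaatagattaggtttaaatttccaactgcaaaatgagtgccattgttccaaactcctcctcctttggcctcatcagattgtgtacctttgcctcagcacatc
Ifng: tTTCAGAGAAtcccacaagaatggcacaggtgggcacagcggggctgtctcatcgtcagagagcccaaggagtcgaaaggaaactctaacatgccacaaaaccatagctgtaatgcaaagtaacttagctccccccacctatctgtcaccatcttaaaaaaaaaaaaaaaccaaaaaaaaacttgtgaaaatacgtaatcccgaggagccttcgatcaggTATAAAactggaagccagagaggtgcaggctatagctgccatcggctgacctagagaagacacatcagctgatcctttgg
Ltb: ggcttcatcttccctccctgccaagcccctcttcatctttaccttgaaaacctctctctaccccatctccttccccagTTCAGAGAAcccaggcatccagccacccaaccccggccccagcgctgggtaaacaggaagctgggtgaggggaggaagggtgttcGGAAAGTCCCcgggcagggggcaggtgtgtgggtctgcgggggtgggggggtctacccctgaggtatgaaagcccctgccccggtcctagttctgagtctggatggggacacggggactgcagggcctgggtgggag
Eomes: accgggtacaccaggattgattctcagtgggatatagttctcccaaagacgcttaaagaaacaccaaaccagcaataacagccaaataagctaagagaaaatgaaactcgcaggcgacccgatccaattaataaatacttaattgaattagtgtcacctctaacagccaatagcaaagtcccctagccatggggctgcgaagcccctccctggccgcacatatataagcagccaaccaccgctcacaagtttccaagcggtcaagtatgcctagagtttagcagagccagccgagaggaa
Of the 25 named higher genes, 21 had a promoter in the table, and so had 19 of the 25 lower ones. TATAAA occurred in 4 of the 21 (Klrc1, Ifng, Gstm5 and Ckb) and in 0 of the 19, against 14.2% of all promoters and 6.96% of those of members. The NF-kB letters occurred in Ltb alone, against 0.385% of all promoters. The STAT letters occurred in Ifng and Ltb, against 8.47%. The T-box letters TCACACCT, the AP-1 letters TGACTCA and the RUNX letters TGTGGTT occurred in 1.27%, 5.17% and 5.37% of all promoters and in at most 1 promoter of either group. A match describes the letters of the window and is not a binding site.

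Receptors shared with natural killer (NK) cells had a median of 0.96 over 7 members, against 0.17 for all members, or 0.79 after quantile normalization. The median was 0.57 with the mean of all probe sets of a gene and 0.68 to 1.23 without single arrays, and 4 of the 7 had passed in both subsets. Klrc1 encodes NKG2A, an inhibitory receptor for the class I molecule Qa-1. Its signals were 186 and 211 in CXCR6+ cells and 60.0 and 19.3 in CXCR6- cells, a log2 difference of 2.54 (SE 0.64). The CXCR6- arrays differed widely from each other, and the log2 difference was 1.72 without CXCR6- replicate 2 and 3.36 without replicate 1. Klrd1, the CD94 chain that pairs with NKG2A, had 118 and 112 against 55.1 and 39.1, a log2 difference of 1.31 (SE 0.28). Klrk1 (NKG2D), an activating receptor, had 7.76 and 7.55 against 3.92 and 2.31. Not all of the group was higher. Crtam, an adhesion receptor of cytotoxic CD4+ and CD8+ T cells, had 2.74 and 2.30 in CXCR6+ cells and 4.09 and 5.98 in CXCR6- cells. Klrg1 had 2.76 and 6.04 against 5.0 and 14.7, and its arrays overlapped. Ncr1, a defining NK cell gene, stayed at 0.69 or less on all LP arrays.

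Genes of cytotoxic granules split between the subsets. Over 15 members the median was 0.14 (-0.06 after quantile normalization), with 4 higher and 2 lower without overlap as deposited and 3 and 5 after quantile normalization. Ctsw, the cathepsin of cytotoxic lymphocytes, had 105 and 110 in CXCR6+ cells and 49.4 and 37.3 in CXCR6- cells, a log2 difference of 1.33 (SE 0.26). Fasl, the ligand of the death receptor Fas, had 82.1 and 105 against 32.5 and 46.8. Nkg7 had 64.9 and 95.5 against 30.5 and 63.3, and its arrays overlapped after quantile normalization. Gzmk, a granzyme of memory-like T cells, went the other way, with 31.5 and 54.2 in CXCR6+ cells and 90.6 and 133 in CXCR6- cells, a log2 difference of -1.41 (SE 0.41). Prf1, which encodes the pore-forming perforin, had 6.18 and 3.82 against 9.85 and 11.9, a log2 difference of -1.16 that was -0.34 when averaged with a dim second probe set. Gzmb (57.8 and 29.6, 36.5 and 57.2) and Gzma (266 and 65.8, 88.9 and 65.5) overlapped, and in Gzma CXCR6+ replicate 1 stood alone.

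Among secreted and membrane cytokines, those of the TNF superfamily formed 1 group with their receptors. Of 15 members, 12 were higher (80.0%, against 41.5% of all members) and 1 was lower without overlap, and after quantile normalization 9 were higher and 2 lower. The median was 0.70, against 0.17 for all members, or 0.46 after quantile normalization and 0.39 without CXCR6- replicate 2. In all, 13 of the 15 had passed in both subsets, and 11 of these were higher. Ltb, which forms the membrane lymphotoxin that organizes lymphoid tissue, had 112 and 106 in CXCR6+ cells and 43.4 and 27.8 in CXCR6- cells, a log2 difference of 1.64 (SE 0.32). Its partner Lta had 4.83 and 6.43 against 2.23 and 1.96. Tnfsf11, the RANK ligand, had 118 and 150 against 78.6 and 62.0. Tnfsf10, which encodes the death ligand TRAIL, had 9.14 and 7.92 against 4.13 and 4.66. In each of these genes both CXCR6+ arrays lay above both CXCR6- arrays, and they still did after quantile normalization. The receptors Tnfrsf1b, Tnfrsf4 and Tnfrsf25 were higher by 0.71, 0.67 and 0.55. Cd27 was the exception of the group and is described with the lower genes. Csf2, the gene of GM-CSF, had 21.3 and 25.5 in CXCR6+ cells and 8.88 and 6.20 in CXCR6- cells, a log2 difference of 1.65 (SE 0.30), and Il21 had 6.48 and 6.0 against 4.10 and 2.32.

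The receptors and signal components of the common γ chain cytokines, which include IL-2, had a median of 0.41 over 12 members, against 0.17 for all members, or 0.23 after quantile normalization. Of the 12, 8 were higher without overlap (66.7%, against 41.5% of all members) and 0 lower, and after quantile normalization 6 were higher and 2 lower. Il2ra, the high affinity IL-2 receptor chain CD25, had 12.3 and 17.2 in CXCR6+ cells and 3.58 and 3.18 in CXCR6- cells, a log2 difference of 2.11 (SE 0.28). Il2rb had 14.7 and 7.78 against 4.74 and 5.21. Cish and Socs2, which are induced by STAT5 and restrain it, were higher by 0.94 and 0.93. Il7r, the brightest of them at 308 to 369, overlapped. Among STAT and SOCS genes more widely, Pim1 and Pim2 were higher by 0.86 and 0.84, while Il10ra, the IL-10 receptor chain, had 2.23 and 2.34 against 4.6 and 4.19, a log2 difference of -0.94 (SE 0.22).

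Il2ra is also listed with regulatory T cell genes, and that group did not move as one. Its 12 members had a median of 0.38 (0.22 after quantile normalization), with 7 higher and 1 lower without overlap as deposited and 3 and 2 after quantile normalization. Ctla4 had 250 and 256 in CXCR6+ cells and 196 and 137 in CXCR6- cells. Izumo1r, the folate receptor 4 of regulatory and anergic T cells, had 2.92 and 2.13 against 5.94 and 5.95, a log2 difference of -1.25 (SE 0.27). Ikzf2 (Helios) ranged from 8.35 and 66.8 to 36.4 and 105, so that its replicates differed more than its subsets. Foxp3, the defining factor, reached at most 0.91 on the LP arrays against 9.60 on the naive array.

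Transcription factors of effector and resident T cells had a median of 0.44 over 14 members, against 0.17 for all members, or 0.22 after quantile normalization. Of the 14, 8 were higher without overlap (57.1%, against 41.5% of all members) and 2 lower, and after quantile normalization 7 were higher and 3 lower. Prdm1, which encodes the repressor Blimp-1, had 27.5 and 25.2 in CXCR6+ cells and 10.4 and 9.49 in CXCR6- cells, a log2 difference of 1.41 (SE 0.22). Irf4 had 53.1 and 35.7 against 26.3 and 10.4. Nfil3 had 7.05 and 5.86 against 3.93 and 3.68, and Bhlhe40 had 210 and 225 against 147 and 146. Both genes kept the same order on the arrays after quantile normalization. Runx3 and Zeb2 differed by 0.04 and -0.03 and overlapped. Tbx21, the Th1 factor T-bet, was higher by 0.78 (14.5 and 10.9 against 6.72 and 7.98), although its relative Eomes was lower.

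Among NF-kB genes the subunits of the noncanonical arm differed most. Of 15 members 11 were higher (73.3%, against 41.5% of all members) and 0 lower without overlap, or 8 and 2 after quantile normalization, with a median of 0.44 (0.24 after quantile normalization). Nfkb2 had 24.8 and 27.0 in CXCR6+ cells and 12.7 and 12.4 in CXCR6- cells, a log2 difference of 1.04 (SE 0.22). Its partner Relb had 29.8 and 38.1 against 18.4 and 16.3, a log2 difference of 0.96 (SE 0.26). Both subunits were above the CXCR6- arrays under either scaling. Nfkbia and Rel, by contrast, differed by 0.12 and -0.11 and overlapped as deposited.

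Of 16 integrin and adhesion members 10 were higher (62.5%, against 41.5% of all members) and 2 lower without overlap, or 9 and 4 after quantile normalization, with a median of 0.49 (0.23 after quantile normalization). Icam1 had 88.5 and 114 in CXCR6+ cells and 45.6 and 51.3 in CXCR6- cells, a log2 difference of 1.06 (SE 0.26). Itgal, the LFA-1 chain that binds ICAM-1, had 80.3 and 97.9 against 57.3 and 45.2. Itgb7, the chain shared by the gut homing integrin and by CD103, had 64.6 and 67.9 against 42.9 and 41.0. Its partners did not follow it. Itgae (CD103) had 116 and 134 against 120 and 106 and overlapped, and Itga4 was lower, at 55.4 and 59.0 against 63.3 and 74.6. Itgb1, the partner of the α1 chain, was also lower, with 4.26 and 4.50 against 6.90 and 5.83, a log2 difference of -0.53 (SE 0.23). Cd69, which keeps T cells in tissue, had 186 and 201 against 163 and 82.0, while S1pr1, the egress receptor it opposes, had 6.01 and 4.71 against 7.62 and 7.27.

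Gpr34, a receptor for lysophosphatidylserine, had 7.15 and 9.60 in CXCR6+ cells and 1.6 and 1.55 in CXCR6- cells, a log2 difference of 2.40 (SE 0.26). Ltb4r1, the leukotriene B4 receptor, had 8.90 and 9.47 against 2.60 and 1.34, a log2 difference of 2.30 (SE 0.41). Both passed the signal filter only in CXCR6+ cells. P2rx7, which senses extracellular ATP, had 5.39 and 8.95 against 3.71 and 3.55, and Gpr18 had 180 and 199 against 121 and 125. Gpr174, another lysophosphatidylserine receptor, lay the other way with 32.8 and 41.3 against 42.6 and 52.4. Over the 13 members of this group 10 were higher (76.9%, against 41.5% of all members) and 2 lower without overlap, with a median of 0.37, but after quantile normalization it was 0.10 with 5 higher and 3 lower.

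Further genes with large differences in favor of CXCR6+ cells had varied roles. Ramp1, a subunit of the receptor for the neuropeptide CGRP, had 8.78 and 13.4 in CXCR6+ cells and 3.21 and 3.06 in CXCR6- cells, a log2 difference of 1.79 (SE 0.31). Slc39a8, an importer of zinc and manganese, had 5.81 and 6.47 against 2.04 and 1.97. Ckb, a creatine kinase, had 21.3 and 39.4 against 9.61 and 7.83. By the rule that chose the 25 genes, none of these overlapped between the subsets. Slamf1, a receptor that binds itself on neighboring cells, had 128 and 147 against 71.2 and 34.1, a log2 difference of 1.47 (SE 0.45), or 0.94 without CXCR6- replicate 2. Actn2, an α-actinin best known from muscle, had 77.6 and 99.2 against 38.7 and 24.5, with 0.73 on the naive array. Gcnt2 (a glycosyltransferase), Blm (a DNA helicase), Adam8 (a metalloprotease) and the kinase gene Fes were higher by 1.59, 1.44, 1.43 and 1.71. Gstm5, Edaradd, Hid1, Gab3, Epsti1 and Krt83 completed the 25 with log2 differences of 1.45 to 2.06, of which those of Gab3 and Krt83 were 0.93 and 0.94 without CXCR6- replicate 2. Of the 25 genes, 14 had passed the signal filter in both subsets.

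**Figure D2:**
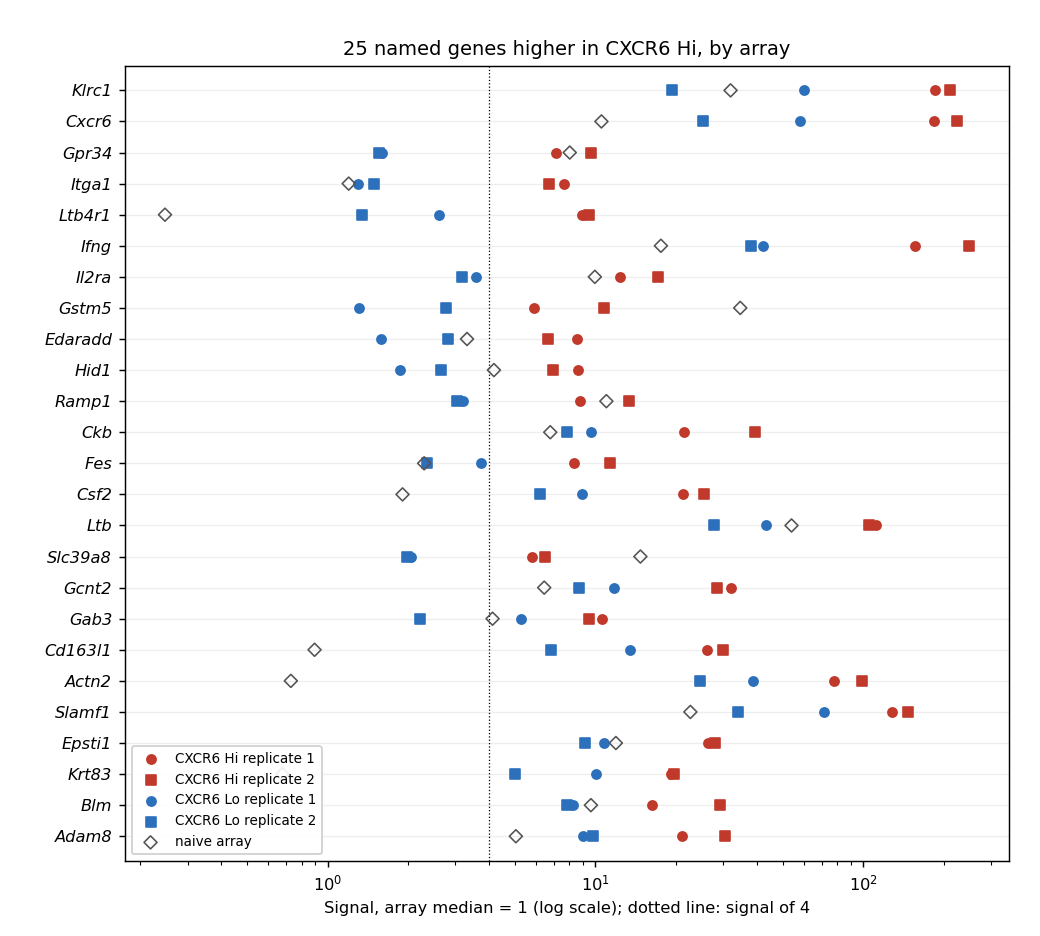
Signals of the 25 named genes higher in CXCR6 Hi are plotted on a log axis, 1 row a gene, with the CXCR6 Hi arrays in red, the CXCR6 Lo arrays in blue and the naive array as an open diamond. The genes were chosen for arrays that do not overlap, so in every row both red points lie to the right of both blue ones. CXCR6 Lo replicate 1 lies to the right of replicate 2 in 20 of the 25 rows.

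Cd163l1, a scavenger receptor known from γδ T cells, was one of the 25, with 26.2 and 29.9 in CXCR6+ cells and 13.4 and 6.84 in CXCR6- cells. The sort took CD3+CD4+ cells after transfer of CD4+ cells, while most γδ T cells lack CD4. A list of 9 genes known from γδ T cells was put together after the values had been seen and holds the genes that prompted it, so no count is read from it. Trgv4, a variable segment of the T cell receptor γ chain, had 40.5 and 45.9 against 15.2 and 9.95, and Trgv1 had 25.4 and 32.1 against 11.55 and 19.3. The probe sets used for Trgv4, Cd163l1 and Il17re are of types that can also bind related sequences. A second Cd163l1 probe set, not of these types, had 5.77 and 9.0 against 3.8 and 2.27. 5830411N06Rik had 16.9 and 22.5 against 5.06 and 5.25. Il17re, a chain of the IL-17C receptor, had 26.3 and 33.1 against 14.4 and 4.6, while Il1r1, an IL-1 receptor, had 41.2 and 30.2 against 31.8 and 8.51 and overlapped. Sox13, Blk and Zbtb16, factors and a kinase that mark subsets of γδ or innate-like T cells, reached at most 0.94, 1.2 and 1.59 on any LP array. The summed signal of the 9 genes was 179 and 195 in CXCR6+ cells and 93.1 and 57.5 in CXCR6- cells. The choice of the list favored this difference, so it is not read as a result either. Whether γδ T cells were present, or had a part in the other differences, was not tested.

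Eomes gave the largest difference of any named gene. Its signals were 1.38 and 2.32 in CXCR6+ cells and 13 and 36.5 in CXCR6- cells, with 11 on the naive array. The log2 difference was -3.61 (SE 0.65), and it was -2.87 without CXCR6- replicate 2 and -4.35 without CXCR6- replicate 1. Eomes passed the signal filter only in CXCR6- cells, as did Cxcr5 and Cd27. Eomes is a T-box factor of cytotoxic and central memory T cells, and genes of such cells lay on both sides, with Gzmk and Crtam lower in CXCR6+ cells and Nkg7 and Klrd1 higher. Ccl5, a chemokine of cytotoxic and memory T cells, had 97 and 74.0 in CXCR6+ cells and 149 and 176 in CXCR6- cells. Slamf6, a SLAM family receptor, had 22.6 and 24.3 against 49.8 and 44.6.

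Cd27, a costimulatory receptor lost by late effector cells, had 1.29 and 1.66 in CXCR6+ cells and 5.48 and 8.52 in CXCR6- cells, a log2 difference of -2.22 (SE 0.34). On the naive array it was 60.8, so both subsets lay well below it. Other genes of naive and stem-like T cells differed less. Bach2, a repressor that holds back effector genes, had 4.61 and 2.85 against 6.97 and 5.93, with 21.8 on the naive array. Myb had 7.29 and 6.41 against 8.2 and 20.3, with 114 on the naive array, and CXCR6- replicate 2 carried most of its difference. Over 13 members of that group the median was -0.20, or -0.36 after quantile normalization, with 1 higher and 6 lower without overlap as deposited and 0 and 7 after quantile normalization. The direction of this median was lost with the mean of probe sets (0.05) and without CXCR6+ replicate 2 (0.06). Lef1 (15.0 and 8.80, 9.81 and 13.1) and Ccr7 (23.8 and 14.0, 31.9 and 13.6), central members of the group, overlapped.

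Genes of help to B cells had a median of -0.19 over 11 members (-0.37 after quantile normalization, and -0.43 to -0.04 without single arrays), but they did not all lie with Cxcr5. Pdcd1, the inhibitory receptor PD-1, had 8.53 and 16.3 in CXCR6+ cells and 18.7 and 21.1 in CXCR6- cells. Sh2d1a, the adaptor of the SLAM receptors, had 9.63 and 8.07 against 12.7 and 16.2. These and Slamf6 were lower without overlap under either scaling. Bcl6, the factor that defines follicular helper cells, had 38.2 and 32.8 against 33.1 and 34.3 and overlapped, and Il21 was higher in CXCR6+ cells.

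Other genes with higher signals in CXCR6- cells included several receptors and regulators. Rgs16, which switches off G protein signals from chemokine receptors, had 4.80 and 6.40 in CXCR6+ cells and 16.4 and 36.5 in CXCR6- cells, a log2 difference of -2.15 (SE 0.50). Ret, the receptor tyrosine kinase for GDNF family ligands, had 5.73 and 3.85 against 14.3 and 17.5, with 0.07 on the naive array. Il17rb, the receptor chain for IL-25, had 3.90 and 6.01 against 13.6 and 12.8. These genes were higher in CXCR6- cells than on the naive array as well, unlike Cd27. Aff3 had 3.88 and 3.62 against 12.3 and 11.9, with 56.6 on the naive array and a log2 difference of -1.69 (SE 0.21). Plagl1, a zinc finger factor, had 3.11 and 6.68 against 24.9 and 22.4, a log2 difference of -2.37 (SE 0.46). Its other probe sets reached at most 1.03 on the LP arrays.

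Itm2a, Adk (adenosine kinase), Reck (an inhibitor of matrix metalloproteases) and Hey1 (a target of Notch) had log2 differences of -1.25, -1.02, -1.02 and -0.94. Gpr155, Usp33, Grhl1, Vamp1, Tdrp, Armcx2, Rere and Pou6f1 had log2 differences between -1.52 and -0.98. Of the 25 lower genes, 9 had passed the signal filter in both subsets, and these include Gzmk, Slamf6, Rgs16, Itm2a and Adk. Nr4a2, an orphan nuclear receptor induced by T cell receptor signals, was lower at 31.5 and 36.2 against 55.3 and 63.0, whereas Nr4a1 (94.6 and 62.3, 92.4 and 66.9) overlapped and Nr4a3 (127 and 129, 83.4 and 99.1) was higher. Over the 21 members of the AP-1 and immediate early group the median was 0.22 (0.02 after quantile normalization). Rnf128, an E3 ligase linked to T cell anergy, had 2.31 and 4.6 against 5.90 and 12, and Dusp4, a phosphatase that restrains MAP kinases, had 48.1 and 30.3 against 19.1 and 13.4.

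**Figure D3:**
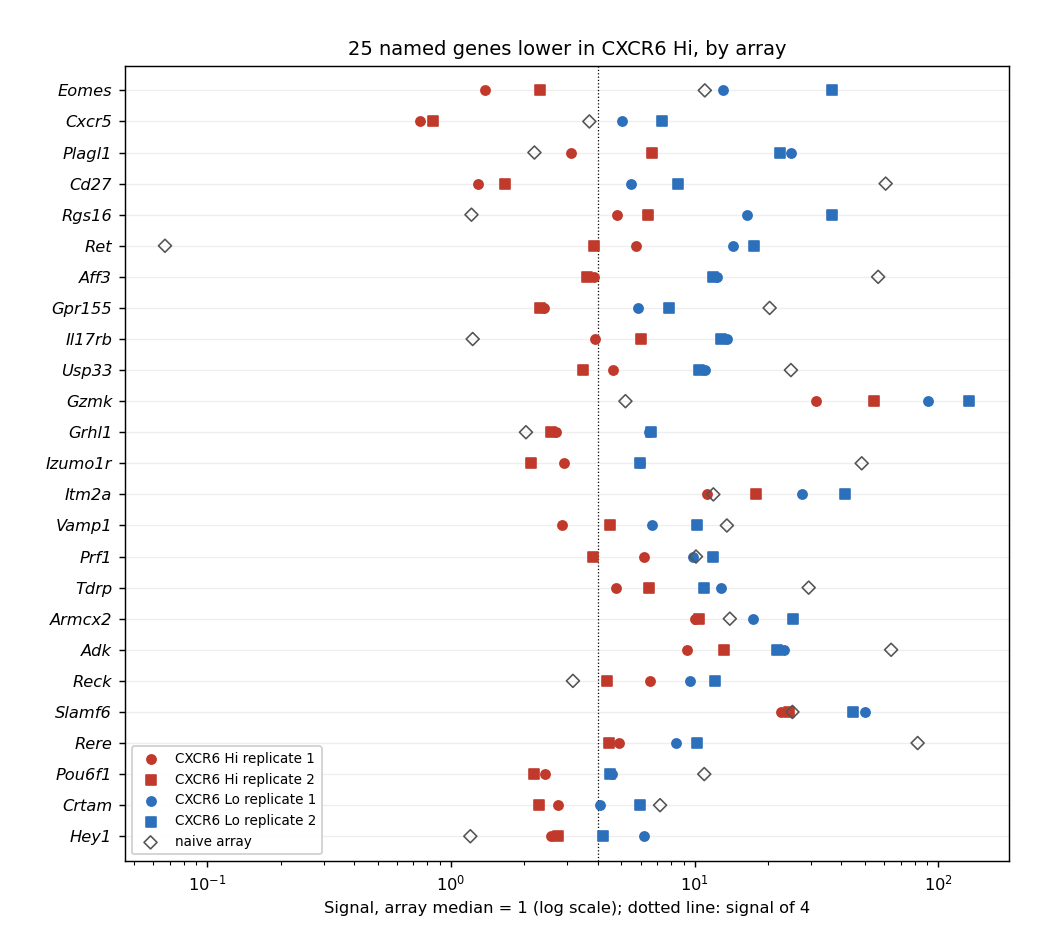
Signals of the 25 named genes lower in CXCR6 Hi, plotted as for the higher genes, with the dotted line at the filter value of 4. By the rule that chose these genes, the CXCR6 Hi arrays lie to the left of the CXCR6 Lo arrays in every row. The naive array lies to the right of all LP arrays in 11 rows, to the left in 8 and between them in 6.

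Groups of genes that all cells use showed small differences. DNA replication genes (23 members) had a median of 0.10, or -0.11 after quantile normalization, with log2 differences from -0.33 to 0.43. Mitosis genes (23 members) had a median of 0.34, or 0.13, with 12 higher and 0 lower without overlap as deposited and 8 and 1 after quantile normalization. Prc1, which bundles the midzone of the spindle, had 24.2 and 26.6 in CXCR6+ cells and 15.2 and 15.6 in CXCR6- cells, and Mki67 had 121 and 126 against 88.8 and 103. Inhibitors of the cell cycle lay on the same side. Cdkn1a, which encodes p21, had 67.7 and 56.2 against 31.5 and 37.9, and 11 of 16 members of its group were higher and 0 lower without overlap, with a median of 0.33 (6 and 2 after quantile normalization, median 0.16).

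Subunits of the respiratory chain were higher without overlap in 49 of 73 members and lower in 1, yet with a median of 0.30, a highest value of 0.81 and a count of 26 and 5 after quantile normalization (median 0.10). Proteasome genes were alike, with a median of 0.33 over 42 members (0.11 after quantile normalization). Psmb8, a catalytic subunit of the immunoproteasome, had 65.7 and 85.4 in CXCR6+ cells and 43.4 and 38.0 in CXCR6- cells. Cytosolic ribosomal proteins had a median of 0.16 over 41 members, close to that of all members, and -0.02 after quantile normalization. Glycolysis and hypoxia genes had a median of 0.30 over 22 members (0.13 after quantile normalization), and single members stood above it. Slc2a3, the glucose transporter GLUT3, had 80.5 and 78.0 against 39.8 and 31.6, a log2 difference of 1.16 (SE 0.24), and Hk2 had 32.3 and 37.6 against 13.4 and 24. Ldha and Pgk1 differed by 0.11 and 0.12.

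Interferon response genes had a median of 0.00 over 14 members (-0.17 after quantile normalization), with 2 higher and 4 lower without overlap as deposited and 2 and 6 after quantile normalization. Rsad2, Rtp4 and Irf7, all induced by type I interferon, were lower without overlap at -0.93, -0.70 and -0.61. Isg20, an RNA exonuclease of the same response, had 14.2 and 23.4 in CXCR6+ cells and 7.86 and 9.92 in CXCR6- cells. S100, galectin and annexin genes had a median of 0.40 over 19 members (0.21 after quantile normalization). S100a4 had 113 and 155 against 54.9 and 68.3 and Lgals3 had 170 and 230 against 93.6 and 106, while S100a8, a gene of neutrophils, was lower at -0.88. Death and survival genes had a median of 0.52 over 14 members (0.31), with 10 higher and 0 lower without overlap (8 and 1 after quantile normalization), among them Bcl2l1, which encodes the survival factor BCL-XL, at 11.6 and 14.8 against 7.45 and 8.82. Heat shock chaperones had a median of 0.04 over 12 members (-0.16), and over the pairs of arrays it ran from -0.69 to 0.53, so that the replicates set its spread.

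**Figure D4:**
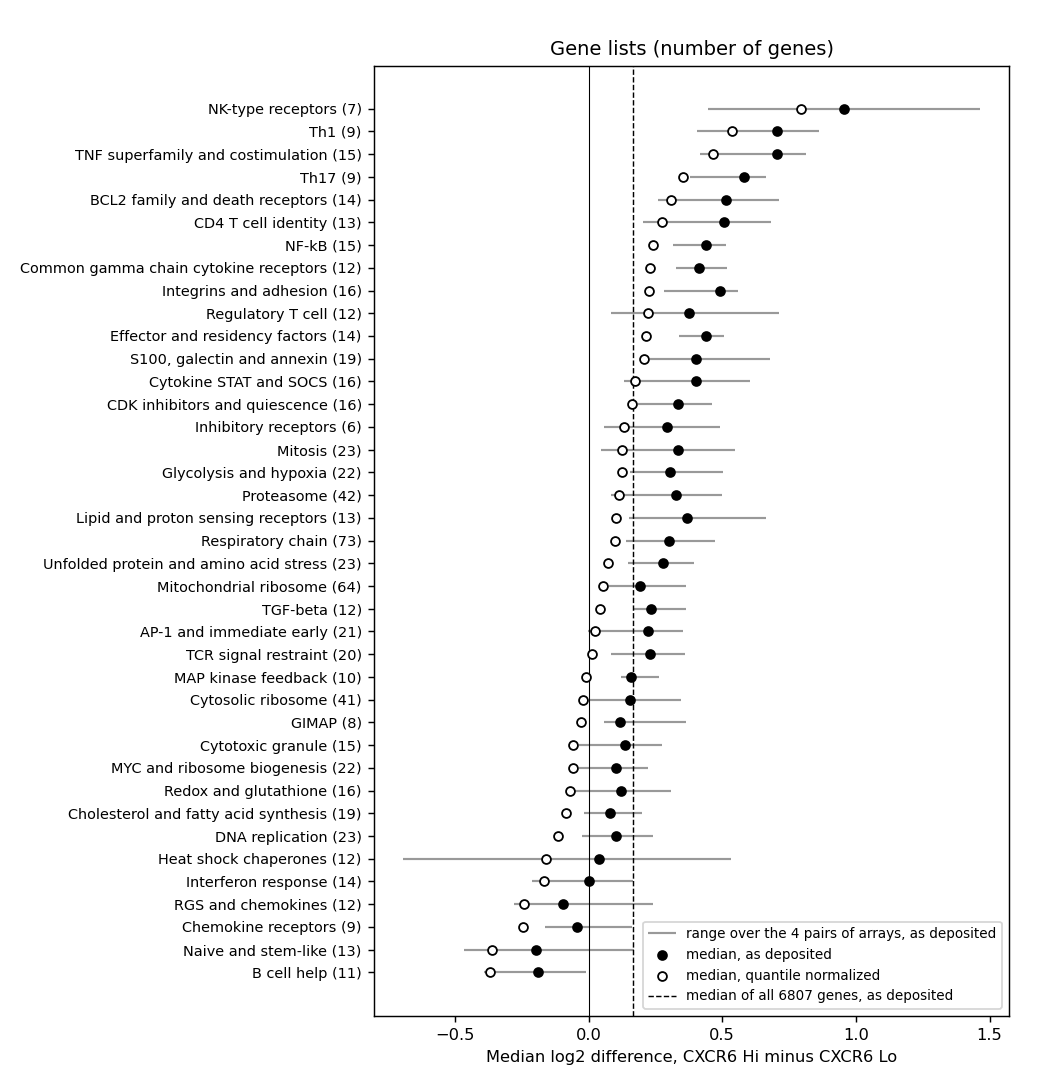
Median log2 difference of each gene group with at least 6 members, as deposited (filled) and after quantile normalization (open). Groups of markers of other cells are left out. Bars give the range over the 4 pairs of a CXCR6 Hi and a CXCR6 Lo array, and the dashed line is the median of all 6807 members. As deposited, NK-type receptors are farthest to the right at 0.96, and B cell help and naive and stem-like genes are farthest to the left at -0.19 and -0.20.

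Th1, Th17 and chemokine receptor genes complete the picture briefly. Th1 genes had a median of 0.70 over 9 members (0.54 after quantile normalization), which spans Ifng and Eomes. Il18rap, a chain of the IL-18 receptor, had 77.8 and 114 in CXCR6+ cells and 44.4 and 32.3 in CXCR6- cells. Th17 genes had a median of 0.58 over 9 members (0.36 after quantile normalization), among them Il17a with 30.7 and 25.8 against 18.1 and 19.4. Chemokine receptors had a median of -0.04 over 9 members (-0.24 after quantile normalization, and -0.08 to 0.14 without single arrays). Cxcr6 and Ccr1 were higher and Cxcr5 was lower without overlap as deposited, and Cxcr3 was at 136 and 159 against 153 and 151.

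Markers of other cells were checked on each array. The summed signal of 26 colonic epithelium markers was 137 and 384 in CXCR6+ cells and 177 and 396 in CXCR6- cells, and 24 of the 26 were higher on replicate 2 than on replicate 1 in both subsets. Reg3b alone had 65.2 and 213 against 102 and 209. Myeloid markers (21 genes) summed to 603 and 828 against 704 and 767, and stromal markers (16 genes) to 144 and 230 against 182 and 221. B and plasma cell markers went the other way, at 83.9 and 12 against 132.5 and 16.9, mostly through Jchain (73.3 and 2.21, 121 and 6.38), while Cd79a and Ms4a1 reached at most 0.54 and 0.20. These sums moved with the replicate number and overlapped between the subsets. Of the stromal markers 5 were lower without overlap and 0 higher, against 14.3% and 25.1% of all genes. The 9 CD8 and NK cell markers summed to 274 and 78.1 against 107.4 and 107.5, which overlapped without following the replicate number. Endothelial, glial and erythroid markers had 0 members. The 12 endothelial and glial markers summed to 11.6 and 11.7 against 13.8 and 14.0, with 5 lower and 1 higher without overlap. Kit, a receptor of mast cells and innate lymphoid cells, was higher in CXCR6+ cells, with 41.0 and 57.6 against 18.9 and 20.4, while the other mast cell and neutrophil members S100a8 and S100a9 were lower and Il1b overlapped.

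**Figure D5:**
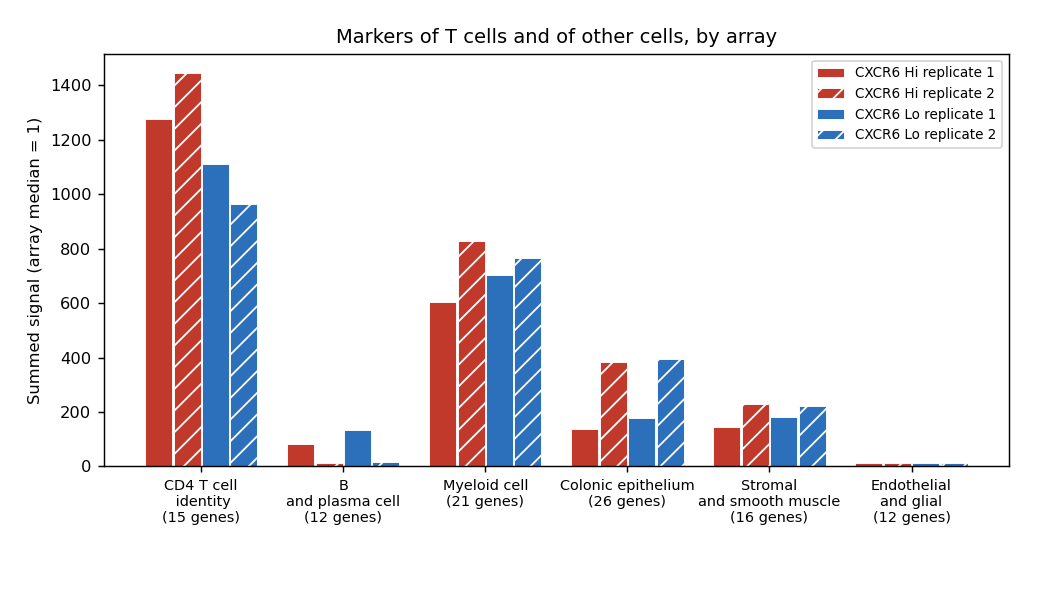
Summed signals of marker genes on each LP array, with CXCR6 Hi in red, CXCR6 Lo in blue and replicate 2 hatched. Epithelial sums are 137 and 177 on the arrays of replicate 1 and 384 and 396 on those of replicate 2, whereas the CD4 T cell sums are 1278 and 1444 in CXCR6 Hi and 1111 and 966 in CXCR6 Lo.

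Against the naive array, the named genes of the 2 directions lay differently. For the 25 higher genes, the naive signal was below all LP arrays in 13, within their range in 10 and above them in 2. For the 25 lower genes it was above in 11, below in 8 and within in 6. Over all members the naive signal was above in 48.0%, below in 36% and within in 16%. The naive array is single and its cells were not exposed to the digestion of the colon, so these positions have no replicate check.

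Other probe sets of the named genes bear on the probe set chosen. Where such a probe set passed the signal filter it gave the same direction, in 9 of 9 for the higher genes (7 genes) and in 6 of 6 for the lower ones (6 genes). For the higher genes only that of Cxcr6 passed in both subsets, and for the lower genes only those of Armcx2, Rere and Slamf6. The others passed only through the subset where the gene was high, so the filter itself favored their direction. A second Cxcr6 probe set had 144 and 177 in CXCR6+ cells and 45.9 and 23.9 in CXCR6- cells, and a second Il2ra probe set had 9.14 and 10.7 against 2.52 and 2.55. Over all other probe sets, dim ones included, 21 of 26 and 15 of 22 had the same direction. Averaging all probe sets of a gene moved the log2 difference by more than 1.5 times in 11 of the 50 named genes. Among them Ramp1 was at 0.46 in place of 1.79, Slc39a8 at 0.61 in place of 1.61, Rgs16 at -0.82 in place of -2.15, Aff3 at -0.66 in place of -1.69 and Ret at -0.95 in place of -1.75. Differences of similar size stood outside the rule for named genes because the arrays spread too far. Ermn, chosen here after its values were seen, had 66.8 and 47.8 in CXCR6+ cells and 24.3 and 5.55 in CXCR6- cells. Nme1, chosen likewise, had 113 and 5.70 against 106 and 99.97, so that CXCR6+ replicate 2 alone set its log2 difference of -2.02.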

How the data were processed

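Affymetrix GeneChip Mouse Genome arrays were hybridized with RNA of CXCR6+ and CXCR6- colonic LP CD4+ T cells (n = 2 arrays each) and of CD45RBhigh naive CD4+ T cells (n = 1), amplified with a kit that primes at the 3′ end. The deposited intensity values are linear signals that the authors made with GeneSpring, according to the methods, while the submitters' notes name RMA. The median of each array is 1 and the upper quartile is 4.73 to 5.39 for LP cells and 7.54 for naive cells, so the values were not quantile normalized. No source used here names the background correction or a filter, and labels and methods disagree on the RNeasy kit. Precision is limited by the number of arrays.

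Of 45101 probe sets, 34945 had 1 gene symbol, 932 several and 9211 none, and 13 control probe sets were left out. By Entrez ID 34741 matched RefSeq. Of the 18193 genes, 9010 had several probe sets, and the one with the highest mean over the 5 arrays was used, with signals log2 transformed. R 4.3.3 with limma 3.58.1 was used for a linear model with moderated variances over the 3 groups (two-sided, threshold 0.05 after Benjamini-Hochberg adjustment over the 18193 genes), with 2 residual and 1.678 prior degrees of freedom, and with 18.84 prior degrees of freedom over the members alone. It was tested on simulated data. Figures were drawn with matplotlib 3.10.9.

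Members, named genes and gene groups were chosen with earlier results of these data known. Named genes were the 4 markers, the 25 members with the largest difference in each direction without overlap and at an unadjusted p under 0.05, without predicted genes, clones and receptor segments (3 higher, 0 lower left out), up to 4 members of each group with the largest differences (or all, where described singly), the 2 genes on each side of the threshold, and the other probe sets of these. Alternatives were other summaries of probe sets, quantile normalization, an added 1, a floor, other filters, other fits, a replicate block, the methods' test and leaving out each array. Promoters were found for 40 of the 50 named genes.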

Additional observations from a re-analysis of the deposited data

How the results depend on the processing

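The counts of members with at least a 2-fold difference without overlap, 121 higher and 25 lower, were 67 and 46 after quantile normalization and 71 and 52 after centring on the members. Averaging the probe sets of a gene gave a lower count of 15. Leaving out an array, which drops a condition of the overlap rule, gave 106 to 206 higher and 38 to 62 lower.

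The counts at an unadjusted p under 0.05, 253 higher and 49 lower, were 146 and 95 after quantile normalization, 150 and 111 after centring, 942 and 125 for the log2 of the signal plus 1, 791 and 138 with signals under 1 set to 1, 949 and 128 with a variance trend and robust fitting, 1048 and 172 over the members alone, and 556 and 98 by the methods' test. The lower count was 26 with a signal of at least 8. Leaving out an array gave 47 to 116 higher and 12 to 29 lower.

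Whether same-numbered arrays of the 2 subsets share mice or a preparation is not stated. Of 26 colonic epithelium markers, 24 were higher on replicate 2 than on replicate 1 in both subsets. Deviations of same-numbered arrays from their subset means correlated at 0.317 over members, and with the numbers as a replicate block 142 members were higher and 35 lower, with 0 past adjustment.

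The count past the adjusted p, 0, was 338 over the members alone, 17 with centring and 8 with quantile normalization, 216 over genes with a mean signal of at least 4 and 292 over genes with at least 4 on all LP arrays. Leaving out an array there gave 11, 4, 229 and 102. The methods' test passed 1 gene of all, no member. Centring and the fits over a part of the genes, other than that over the members as deposited, were chosen after seeing the data.

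Of 699 values of the named genes under the alternatives, 698 kept their direction, but most of these could not turn. Other fits and the replicate block leave the log2 difference unchanged. Genes chosen without overlap keep their direction when an array is left out, 1 is added or a floor is set. Only other summaries of probe sets, quantile normalization and centring could turn it. The log2 difference moved by more than 1.5 times in 16 values of 15 genes, 11 of them with the mean of probe sets, 3 without CXCR6- replicate 2 (Slamf1, Gab3 and Krt83) and 2 without the _s_at and _x_at probe sets (Edaradd and Plagl1). With the mean of probe sets Epsti1 was at 0.76, Adk at -0.24, Rere at -0.55, Plagl1 at -0.79 and Pou6f1 at -1.77, beside those given above. Plagl1 turned to 0.60 without the _s_at and _x_at probe sets, which leaves it a probe set at 1.03 or less on the LP arrays. Of 480 group medians 82 moved by more than their spread. The direction of the naive and stem-like, cytotoxic granule, chemokine receptor and interferon medians turned under at least 1 alternative. So did that of the heat shock, DNA replication, cytosolic ribosome, Th2, MAP kinase feedback, cholesterol, redox, MYC, GIMAP, and RGS and chemokine medians. It also turned for MHC class II and for the myeloid, epithelial, stromal, and B and plasma cell markers. Dim signals limit the genes outside the members.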
